A study of Mus musculus with 36 samples.

Results

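The MAP kinase phosphatases and Sprouty proteins are the cell's own brakes on MAP kinase signalling, and their transcripts were followed here as 10 genes of the 55487 in the count table, namely Dusp1, Dusp4, Dusp5, Dusp6, Dusp8, Dusp10, Dusp14, Dusp16, Spry1 and Spry2. They were selected by symbol, with earlier results of these data known, so shares of the 10 that passed are description only. All 10 passed the filter on low counts that left 15489 genes for testing. RNA-seq was performed on primary mouse embryonic fibroblasts (MEFs), which are fibroblasts grown out of minced mid-gestation embryos after removal of head and organs, treated for 5 h with solvent (vehicle) or 1 μM dexamethasone (Dex), a synthetic ligand of the glucocorticoid receptor (GR). The MEFs were homozygous for the normal receptor (GRwt/wt), for a point mutation in the dimer interface of the DNA-binding domain (GRD/D), for a point mutation in the ligand-binding domain (GRL/L), for both mutations in the same protein (GRD+L/D+L), or for a disrupted receptor gene (GRko/ko). Each genotype was represented by 3 vehicle and 3 Dex libraries per run. The study describes these as coming from 3 cultures, each from a different mouse. Run 1 held GRwt/wt replicates 1 to 3, GRD/D, GRD+L/D+L and GRko/ko, and run 2 held GRwt/wt replicates 4 to 6 and GRL/L, so every mutant was compared with GRwt/wt of its own run. The labels give the strain FVB/NJ for all libraries, whereas the methods describe the mice bred for the receptor knockout as 129 Sv. All mutations were constitutive, so the receptor was also altered before Dex was given.

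MAP kinases are switched on by phosphorylation of a threonine and a tyrosine, and dual-specificity phosphatases remove both phosphates. Some of these enzymes sit in the nucleus and are themselves made in response to MAP kinase activity, others stay in the cytoplasm or prefer the stress kinases JNK and p38 over ERK. Sprouty proteins act further upstream, between receptor tyrosine kinases and the Ras to ERK cascade. Dusp1, also known as MKP-1, is a well-known glucocorticoid-induced gene through which glucocorticoids restrain p38 and JNK in inflammation.

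The libraries held 15280166 to 28662608 counts, the medians being 16579210.5 for run 1 and 24827607.5 for run 2, and each of the 10 genes was covered by at least 90 counts in every library. Nr3c1, the receptor gene itself, was at 15.9 to 20.4 CPM (counts scaled to library size) in the GRko/ko libraries and at 47.8 to 105 CPM in all others, which matched the labels. Xist was at 165 to 305 CPM in GRwt/wt of run 1 and GRD/D and at no more than 14.1 CPM elsewhere, and the summed Y-linked transcripts were at no more than 2.07 CPM in the former and at 136 to 283 CPM in the latter. GRwt/wt of run 1 and GRD/D thus carried the female pattern and GRwt/wt of run 2, GRL/L, GRD+L/D+L and GRko/ko the male pattern, and run, culture and sex cannot be told apart between the GRwt/wt sets. The summed level of 6 macrophage markers ranged from 28.0 CPM in GRD+L/D+L to 2655 CPM in GRko/ko, whereas the fibroblast markers summed to 30951 to 51162 CPM in every library. Log2 fold changes with their standard errors (SE) were obtained in edgeR by its quasi-likelihood F test. The p-values were adjusted by the Benjamini-Hochberg method over all 15489 genes, a gene passed when the adjusted value did not exceed 0.05, and per-library values are CPM after TMM scaling. The p-values measure the spread between the libraries of a group. The study describes these as cultures of different mice, but all libraries of a genotype and run shared the same sex pattern. Whether the cultures were independent was not tested.

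The stretch just upstream of the RefSeq start was available for 9 of the 10 genes, all but Dusp4, and was searched on both strands for a few response elements in the 300 bases from 250 before to 50 after the start. The half-site of the glucocorticoid response element, AGAACA, was found in 0 of these 9 windows and in 19.0% of all 32851 RefSeq promoter windows of the same length, and the full palindromic element was in 0 of the 9 and in 0.00913% of all. The cAMP response element TGACGTCA was found in Dusp1, at 143 bases before the start, and at 2 places in Dusp8, at 107 and 63 bases before it, against 1.79% of all windows. Its core TGACG, which each full element holds on both strands, was also found alone in Dusp1, Dusp5 and Dusp16 and stood in 20.8% of all windows. Dusp5 held a pair of adjacent CArG boxes, the letters read by serum response factor. A CArG box, single or not, stood in 1.63% of all windows, and the share with a pair was not computed. This box was searched for after the sequences had been seen. The AP-1 site TGANTCA, found in 7.81% of all windows, was in none of the 9. The 250 bases before the start are printed for Dusp1, the gene whose Dex change turned with the genotype, for Dusp5, which moved the opposite way, and for Dusp8, which had the element of Dusp1 at 2 places. They lie at chr17:26508473-26508722 on the minus strand, chr19:53528895-53529144 on the plus strand and chr7:142095285-142095534 on the minus strand of GRCm38.p6, are written 5′ to 3′ with the gene's strand, and show the matched letters in capitals. The 9 windows held 57.3 to 73.3% G and C, above the median of 52.7% over all windows. The shares over all windows were not matched for this. The matches describe letters only.
Dusp1: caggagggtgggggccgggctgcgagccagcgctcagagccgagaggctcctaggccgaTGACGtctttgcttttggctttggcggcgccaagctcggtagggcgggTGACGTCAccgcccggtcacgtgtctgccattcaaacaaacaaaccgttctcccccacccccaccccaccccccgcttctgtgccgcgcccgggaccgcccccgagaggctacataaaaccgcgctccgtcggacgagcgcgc
Dusp5: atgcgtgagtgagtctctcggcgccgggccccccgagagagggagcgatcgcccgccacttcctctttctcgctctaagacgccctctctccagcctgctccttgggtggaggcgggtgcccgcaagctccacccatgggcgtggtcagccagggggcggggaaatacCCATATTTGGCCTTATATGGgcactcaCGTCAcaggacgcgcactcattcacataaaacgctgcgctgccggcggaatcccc
Dusp8: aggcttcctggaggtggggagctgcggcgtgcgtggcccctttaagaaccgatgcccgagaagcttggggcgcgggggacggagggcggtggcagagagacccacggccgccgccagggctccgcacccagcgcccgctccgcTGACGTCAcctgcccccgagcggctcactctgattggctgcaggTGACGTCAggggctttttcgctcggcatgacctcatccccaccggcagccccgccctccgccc

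In vehicle-treated GRwt/wt of run 1, compared as CPM per kilobase of exon (FPKM), Dusp4 was the most abundant of the 10 at 95.3 ± 3.54 FPKM (SD, n = 3), followed by Spry2 at 30.0, Dusp6 at 26.6 and Dusp5 at 26.1 ± 2.87. Dusp1 stood at 15.6, Spry1 at 13.9 ± 1.61, Dusp14 at 7.22 ± 0.554 and Dusp10 at 7.14, and Dusp16 and Dusp8 were lowest at 2.99 and 2.57 FPKM. Of these neighbours, Dusp6 and Dusp5 and likewise Dusp14 and Dusp10 were not separated by more than their spread, and Dusp1 and Spry1 by little more than the SD of Spry1. In GRwt/wt of run 2 the order was different at the top, since Spry2 at 15.2, Dusp4 at 14.8 and Dusp6 at 14.5 FPKM did not differ beyond their spread, and Dusp8 was again lowest at 1.53. The vehicle level of Dusp4 was 6.44 times as high in run 1 as in run 2, that of Dusp1 4.73 times, of Dusp5 3.38 times, of Dusp10 3.14 times and of Dusp14 2.78 times, whereas Spry1 and Dusp16 differed by 1.18 and 1.09 times. All 24 libraries of run 1 lay above all 12 libraries of run 2 in Dusp1, Dusp4, Dusp5, Dusp6, Dusp8 and Dusp10, as the plot of levels by library shows. The share of all genes that separated the runs in this way was not computed, so these run differences are description only. Levels are compared only within a run below.

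**Figure D1:**
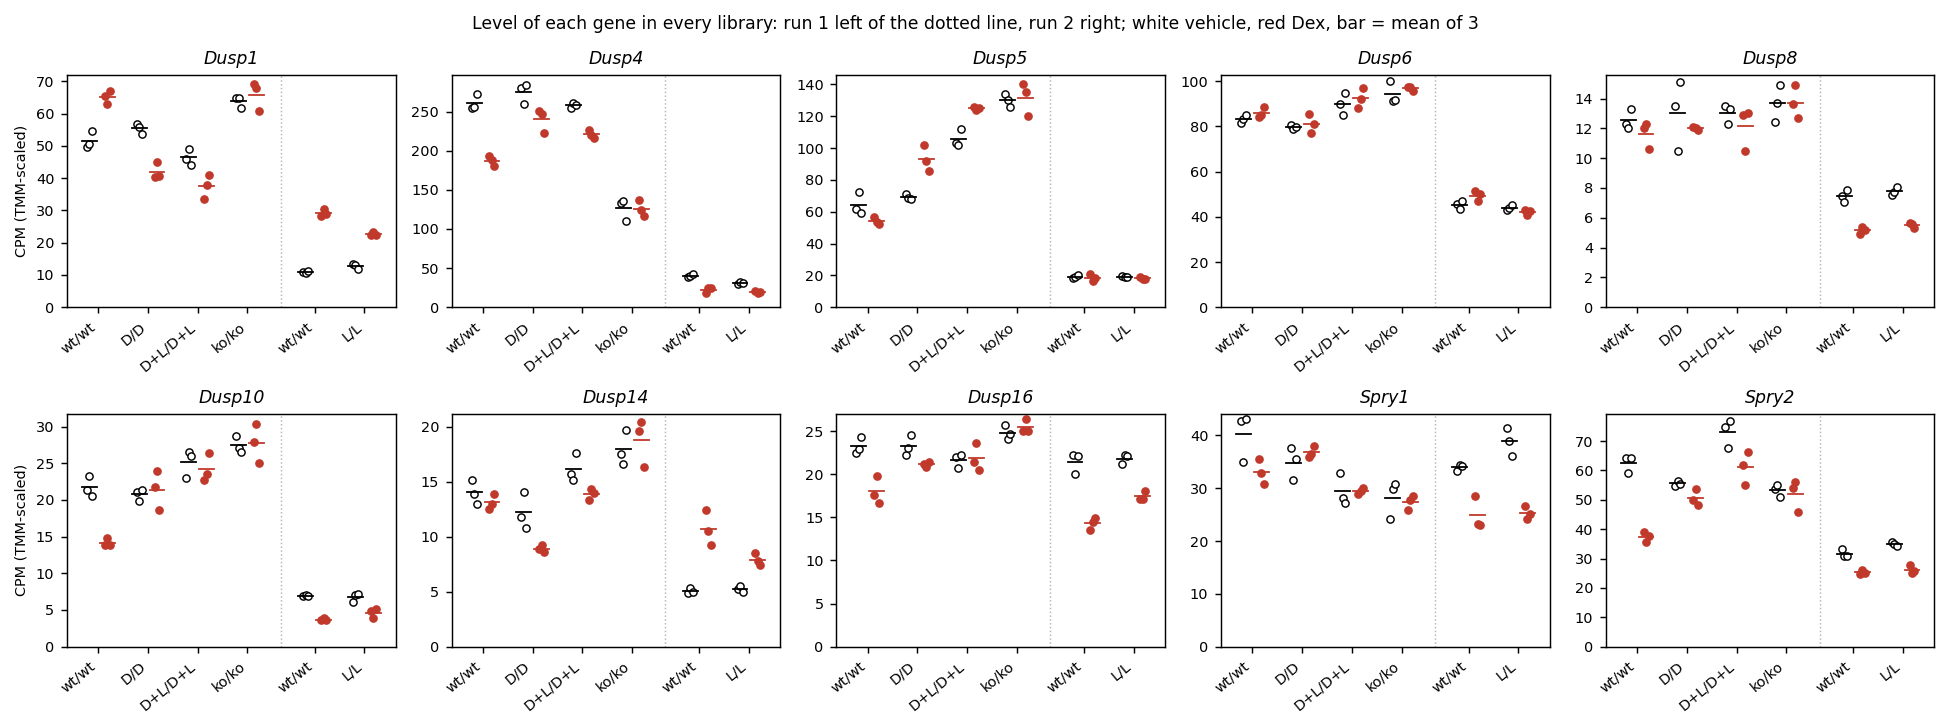
Level of each of the 10 genes in CPM (vertical axes, linear, starting at 0) in all 36 libraries, by genotype, with run 1 left and run 2 right of the dotted line. White points are vehicle libraries, red points Dex libraries and bars the mean of 3. Dusp1 rises with Dex in both GRwt/wt sets and in GRL/L and falls in GRD/D and GRD+L/D+L, and Dusp4, Dusp1 and Dusp5 are lower throughout run 2.

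Dex lowered most of these transcripts in GRwt/wt and raised Dusp1. In run 1, 7 of the 10 genes passed, against 13.9% of all genes tested, 1 raised and 6 lowered, and 6.20% of all genes were lowered. In run 2, 8 of 10 passed, all but Dusp5 and Dusp6, against 31.6% of all genes, 2 raised and 6 lowered, and 16.7% of all genes were lowered. Of these, 6 passed in both runs in the same direction, with Dusp1 raised and Dusp4, Dusp10, Dusp16, Spry1 and Spry2 lowered. The share of all genes that passed in both runs in the same direction was not computed. The median log2 fold change of the 10 genes was -0.27 in run 1 and -0.39 in run 2, beside -0.0018 and -0.011 over all genes. With the study's additional limit of 1 on the size of the log2 fold change, the genes that passed were Dusp1 and Dusp14 in run 2, 2 of 10 against 4.49% of all genes.

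In GRL/L 8 of 10 genes passed, against 19.1% of all genes, 2 raised and 6 lowered, and 10.4% of all genes were lowered. Raised were Dusp1 and Dusp14, and lowered Dusp4, Dusp8, Dusp10, Dusp16, Spry1 and Spry2. In GRD/D 3 of 10 passed, against 11.9% of all genes, and in GRD+L/D+L 3 of 10, against 5.00%. In both, Dusp1 was lowered and Dusp5 raised, and the third gene was Dusp14 in GRD/D and Spry2 in GRD+L/D+L, both lowered. In GRko/ko 0 of the 10 passed, 0 of them had an unadjusted p under 0.05, and 0% of all genes passed by edgeR, with 859 genes at an unadjusted p under 0.05, while DESeq2 called 0 of the 10 and 1 gene in all. The 10 log2 fold changes in GRko/ko lay between -0.042 and 0.070.

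**Figure D2:**
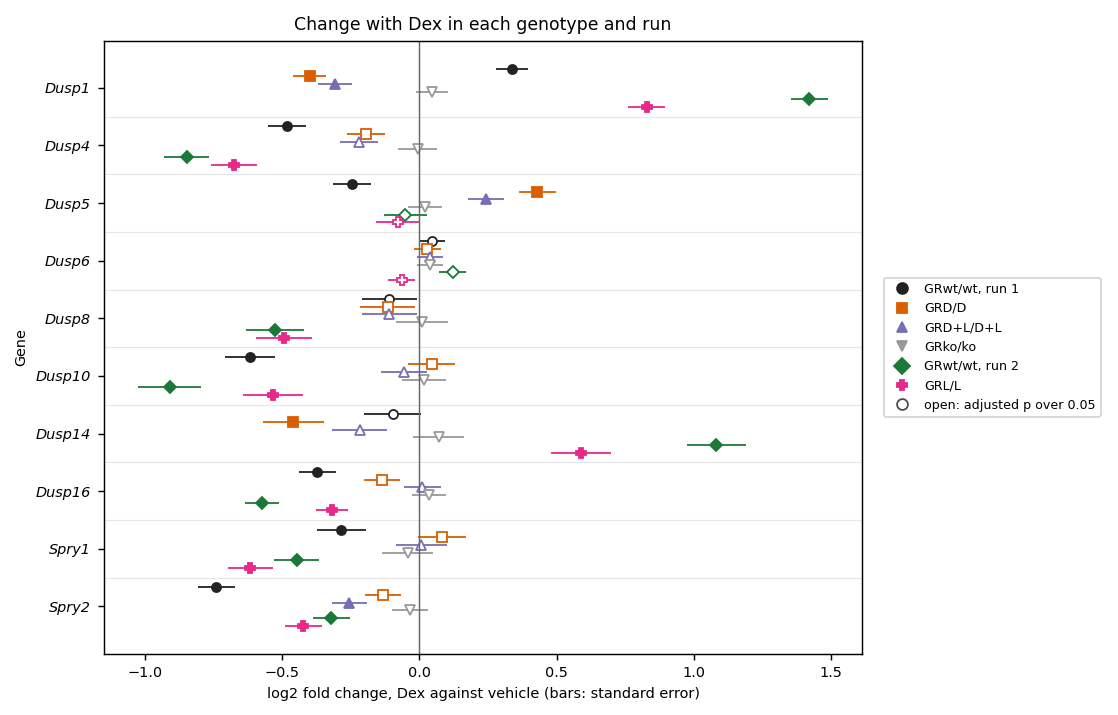
Log2 fold change of Dex against vehicle (horizontal axis) for each gene and genotype, with bars for the standard error of the fit and filled symbols where the adjusted p-value did not exceed 0.05. Dusp1 spans from -0.40 in GRD/D to 1.42 in GRwt/wt of run 2, GRko/ko lies between -0.042 and 0.070, and Dusp5 is raised in GRD/D and GRD+L/D+L.

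The difference of the Dex response between each mutant and GRwt/wt of the same run was then tested as an interaction. In GRD/D 4 of 10 genes responded differently, against 3.29% of all genes, in GRD+L/D+L 5 of 10, against 3.23%, and in GRko/ko 5 of 10, against 8.48%. These 3 comparisons share the GRwt/wt libraries of run 1. GRD+L/D+L and GRko/ko also differed from them in the Xist and Y-linked pattern and all 3 mutants in the macrophage markers, whose part in the response differences was not tested. Dusp1, Dusp10 and Spry2 were among the genes in all 3, Dusp5 in GRD/D and GRD+L/D+L, Dusp16 in GRD+L/D+L and GRko/ko, and Dusp4 in GRko/ko. In GRL/L the response of Dusp1 alone differed, 1 of 10 against 1.85% of all genes. Between GRD+L/D+L and GRD/D the response differed for 0 of 10 genes by edgeR, with 0 at an unadjusted p under 0.05 and 0 by DESeq2, against 0.0775% of all genes. Between the GRwt/wt sets, Dusp1, Dusp4, Dusp14 and Spry2 responded differently, 4 of 10 against 7.09% of all genes. With the run as a term and the GRwt/wt runs pooled, the count of GRD/D was 8, with Dusp4, Dusp14, Dusp16 and Spry1 added. The count of GRD/D over all genes also rose, from 509 to 1105.

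**Figure D3:**
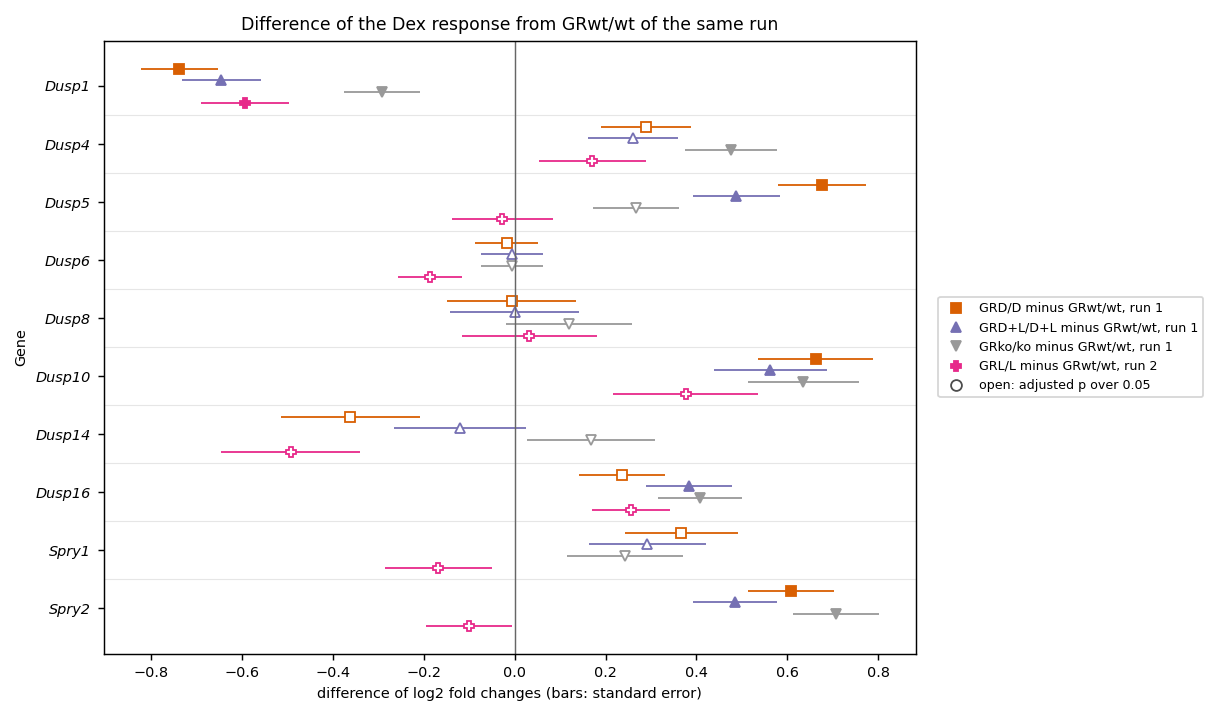
Difference of the Dex response from GRwt/wt of the same run (horizontal axis, difference of log2 fold changes), with bars for the standard error and filled symbols where the adjusted p-value did not exceed 0.05. Dusp1 lies below 0 in all 4 mutants, and Dusp10 and Spry2 lie above 0 in the 3 mutants of run 1.

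Dusp1 (ENSMUSG00000024190, chr17:26505590-26562128 on mm10, minus strand) encodes a nuclear phosphatase that acts on p38, JNK and ERK. In GRwt/wt of run 1 it was at 49.6, 50.6 and 54.6 CPM with vehicle and at 65.5, 63.1 and 67.0 CPM with Dex. In run 2 it was at 10.8, 10.7 and 11.2 CPM with vehicle and at 28.2, 30.4 and 28.8 CPM with Dex. The groups did not overlap in either run, and the lower start of run 2 went with the larger fold. The gain was 13.6 ± 1.91 CPM (SE of the difference) in run 1 and 18.3 ± 0.689 CPM in run 2, which corresponds to 1.26-fold (log2 0.34, SE 0.06, adjusted p = 5.35e-05) and 2.68-fold (log2 1.42, SE 0.07, adjusted p = 4.59e-19). On the log2 scale the responses of the runs differed by 1.08 (SE 0.09, adjusted p = 4.36e-11). Ergic1 overlaps Dusp1 on the other strand by 11 exon bases.

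In GRD/D, Dusp1 went from 56.9, 56.0 and 53.7 CPM with vehicle to 40.3, 45.0 and 40.8 CPM with Dex. In GRD+L/D+L it went from 46.1, 49.1 and 44.1 CPM to 33.6, 37.8 and 41.1 CPM. All Dex libraries of these genotypes lay below all their vehicle libraries, the reverse of GRwt/wt, and the log2 fold change was -0.40 in GRD/D (SE 0.06, adjusted p = 9.26e-06) and -0.31 in GRD+L/D+L (SE 0.06, adjusted p = 0.0011). The difference from GRwt/wt was -0.74 (SE 0.09, adjusted p = 1.09e-07) and -0.65 (SE 0.09, adjusted p = 2.29e-06), and that between the mutants was 0.09, with an approximate 95% interval from -0.080 to 0.26. In GRko/ko the vehicle libraries at 65.0, 64.9 and 61.9 CPM and the Dex libraries at 69.2, 67.8 and 60.8 CPM overlapped, and the difference from the GRwt/wt response was -0.29 (SE 0.08, adjusted p = 0.02). This last call was lost without GRko/ko Dex replicate 3 (-0.23, adjusted p = 0.096), GRko/ko vehicle replicate 2 (-0.28, 0.0534), or GRwt/wt Dex replicate 3 (-0.27, 0.0538), vehicle replicate 1 (-0.26, 0.0764) or vehicle replicate 2 (-0.27, 0.0575). With the run as a term and the GRwt/wt runs pooled, the fall in GRD/D and in GRD+L/D+L had the same size but did not pass (-0.40, adjusted p = 0.0588, and -0.31, adjusted p = 0.327), while the differences from GRwt/wt did.

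In GRL/L, Dusp1 rose from 13.3, 13.2 and 11.9 CPM to 22.5, 23.3 and 22.4 CPM, a gain of 9.95 ± 0.522 CPM (SE of the difference) or 1.77-fold (log2 0.83, SE 0.07, adjusted p = 2.8e-12). Every Dex library of GRL/L lay below every Dex library of GRwt/wt in run 2, and the response was smaller by 0.59 on the log2 scale (difference -0.59, SE 0.10, adjusted p = 0.000136). With the GRwt/wt runs pooled this difference was 0.015 (adjusted p = 0.994), since the smaller response of run 1 then entered the comparison.

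Dusp4 (ENSMUSG00000031530, chr8:34807297-34819894, plus strand), a nuclear phosphatase close to Dusp1 in structure, went the other way. With Dex it fell from 255, 256 and 272 CPM to 193, 188 and 180 CPM in GRwt/wt of run 1 and from 39.2, 39.9 and 42.5 CPM to 18.6, 24.2 and 24.7 CPM in run 2. The groups were separate in both runs, with log2 fold changes of -0.48 (SE 0.07, adjusted p = 1.79e-06) and -0.85 (SE 0.08, adjusted p = 1.18e-10). The response of the runs differed by -0.37 (SE 0.11, adjusted p = 0.0298), a call that 6 of the 12 GRwt/wt libraries decided, since it did not pass without vehicle replicate 1, 2 or 6 or Dex replicate 1, 2 or 4 (-0.36 to -0.25, adjusted p from 0.0597 to 0.168). GRL/L fell from 30.1, 32.0 and 30.5 CPM to 21.1, 17.6 and 19.2 CPM (log2 -0.68, SE 0.08, adjusted p = 7.04e-08).

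In GRD/D and GRD+L/D+L the Dusp4 groups were also separate, at 280, 260 and 284 against 251, 247 and 222 CPM and at 255, 261 and 258 against 227, 220 and 216 CPM. The log2 fold changes of -0.19 (SE 0.07, adjusted p = 0.0632) and -0.22 (SE 0.07, adjusted p = 0.0584) did not pass, but did in several alternative fits, among them that of the libraries of run 1 alone (adjusted p = 0.0409 and 0.0275), and in GRD/D also without vehicle replicate 2 (-0.23, adjusted p = 0.0491). Their difference from the GRwt/wt response, 0.29 (SE 0.10, adjusted p = 0.122) and 0.26 (SE 0.10, adjusted p = 0.2), did not pass either, but did with the GRwt/wt runs pooled (0.45, adjusted p = 0.00339, and 0.42, adjusted p = 0.00635). In GRko/ko Dusp4 was at 133, 136 and 110 CPM with vehicle and 137, 124 and 117 CPM with Dex, and the difference from GRwt/wt was 0.48 (SE 0.10, adjusted p = 0.00114).

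Dusp5 (ENSMUSG00000034765, chr19:53529109-53542431, plus strand) encodes a nuclear phosphatase selective for ERK, itself induced by ERK. In GRwt/wt of run 1 it was at 61.4, 72.6 and 59.5 CPM with vehicle and 56.9, 53.5 and 52.6 CPM with Dex, and the fall of 0.25 on the log2 scale (log2 -0.25, SE 0.07, adjusted p = 0.0131) rested on the highest vehicle library, since it was -0.16 without vehicle replicate 2 (adjusted p = 0.187) and -0.22 without Dex replicate 3 (adjusted p = 0.0721). In GRD/D it rose from 71.3, 68.7 and 68.0 CPM to 102, 91.9 and 85.6 CPM. In GRD+L/D+L it rose from 103, 102 and 112 CPM to 126, 124 and 125 CPM. The groups were separate in both, and the rise was 1.35-fold in GRD/D (log2 0.43, SE 0.07, adjusted p = 1.28e-05) and 1.18-fold in GRD+L/D+L (log2 0.24, SE 0.06, adjusted p = 0.0176). The difference from the GRwt/wt response was 0.68 (SE 0.10, adjusted p = 7.38e-06) and 0.49 (SE 0.10, adjusted p = 0.000903), and these differences passed without any single library. The rise in GRD+L/D+L itself did not pass without any 1 of 5 of its 6 libraries (0.22 to 0.24, adjusted p from 0.0545 to 0.101), vehicle replicate 3 being the exception.

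In run 2 Dusp5 stayed low, at 16.7 to 20.6 CPM in all 12 libraries of GRwt/wt and GRL/L, and its log2 fold changes of -0.05 and -0.08 did not pass. In GRko/ko it was at 126 to 134 CPM with vehicle and 120 to 140 CPM with Dex. The difference of its response from GRwt/wt was 0.27 (SE 0.09, adjusted p = 0.076), and it passed without GRko/ko Dex replicate 3 (0.33, adjusted p = 0.0232) or GRwt/wt vehicle replicate 3 (0.32, adjusted p = 0.0323). Dusp5 shares 547 exon bases with an antisense transcript, AC137853.2, to which 380 counts fell over all libraries.

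Dusp6 (ENSMUSG00000019960, chr10:99263231-99267489, plus strand) encodes the cytoplasmic ERK-selective phosphatase and is a classical read-out of ERK activity. Its change with Dex was the most even of the 10. Its log2 fold change lay between -0.065 in GRL/L and 0.12 in GRwt/wt of run 2, where it went from 45.9, 43.3 and 47.0 CPM to 51.4, 47.0 and 49.9 CPM. That value did not pass (SE 0.05, adjusted p = 0.0549), but did with DESeq2 (0.13, adjusted p = 0.0454), and without Dex replicate 5 (0.16, adjusted p = 0.0238) or vehicle replicate 6 (0.15, adjusted p = 0.0403). In the 3 mutants of run 1 the difference of its response from GRwt/wt was within 0.02 on the log2 scale, with approximate 95% intervals that together ran from -0.15 to 0.13. In GRL/L the difference was -0.19 (SE 0.07, adjusted p = 0.209).

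Dusp10 (ENSMUSG00000039384, chr1:184013302-184075636, plus strand), a phosphatase that prefers JNK and p38, showed the largest mean fall over the GRwt/wt runs. In run 1 it fell from 21.3, 23.3 and 20.6 CPM to 13.8, 14.8 and 13.9 CPM, and in run 2 from 6.84, 7.04 and 6.83 CPM to 3.56, 3.84 and 3.61 CPM. The groups were far apart in both runs, at 0.652 times (log2 -0.62, SE 0.09, adjusted p = 2.64e-06) and 0.532 times the vehicle level (log2 -0.91, SE 0.12, adjusted p = 5.2e-08). GRL/L fell from 6.02, 7.02 and 7.23 CPM to 4.84, 3.87 and 5.19 CPM (log2 -0.53, SE 0.11, adjusted p = 0.000289). In GRD/D, GRD+L/D+L and GRko/ko the vehicle and Dex libraries overlapped, at 18.6 to 23.9, 22.7 to 26.5 and 25.1 to 30.4 CPM. The response of these 3 differed from GRwt/wt by 0.66 (SE 0.13, adjusted p = 0.000652), 0.56 (SE 0.12, adjusted p = 0.00414) and 0.63 (SE 0.12, adjusted p = 0.000313), and each of these passed in every alternative fit that was run.

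Dusp16 (ENSMUSG00000030203, chr6:134715468-134792625, minus strand), another phosphatase of JNK and p38, was the gene whose vehicle level differed least between the runs. It fell from 22.5, 23.0 and 24.3 CPM to 17.6, 19.8 and 16.7 CPM in GRwt/wt of run 1 (log2 -0.37, SE 0.07, adjusted p = 7.71e-05) and from 22.2, 20.0 and 22.1 CPM to 13.6, 14.5 and 14.9 CPM in run 2 (log2 -0.58, SE 0.06, adjusted p = 1.29e-09). GRL/L fell from 21.2, 22.2 and 22.1 CPM to 17.2, 17.1 and 18.1 CPM (log2 -0.32, SE 0.06, adjusted p = 8.63e-05). The groups did not overlap in these 3 sets. In GRD+L/D+L, at 20.5 to 23.6 CPM, and in GRko/ko, at 24.1 to 26.4 CPM, they did, and the difference from the GRwt/wt response was 0.38 (SE 0.09, adjusted p = 0.0123) and 0.41 (SE 0.09, adjusted p = 0.00248). The call in GRD+L/D+L was lost without its Dex replicate 2 (0.32, adjusted p = 0.0782), GRwt/wt Dex replicate 3 (0.33, 0.072) or GRwt/wt vehicle replicate 3 (0.35, 0.0513), and with no filter on low counts (0.38, 0.109). In GRD/D the fall of Dusp16 did not pass (log2 -0.14, SE 0.07, adjusted p = 0.186), nor did its difference from GRwt/wt (0.24, SE 0.09, adjusted p = 0.24), although that passed with the GRwt/wt runs pooled (0.35, adjusted p = 0.00656).

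Dusp8 (ENSMUSG00000037887, chr7:142079490-142095843, minus strand), the third of the JNK and p38 phosphatases, had the lowest FPKM in GRwt/wt of both runs, with 124 to 270 counts per library. It fell in run 2 from 7.44, 7.08 and 7.84 CPM to 4.91, 5.4 and 5.19 CPM in GRwt/wt (log2 -0.53, SE 0.11, adjusted p = 0.000139) and from 7.54, 7.75 and 8.05 CPM to 5.66, 5.58 and 5.34 CPM in GRL/L (log2 -0.49, SE 0.10, adjusted p = 0.000358). In the 4 sets of run 1 all groups overlapped, between 10.5 and 15.1 CPM, and the log2 fold changes were -0.12 to 0.0093, none of which passed. The difference between the GRwt/wt runs, -0.42 (SE 0.15, adjusted p = 0.0817), did not pass.

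Dusp14 (ENSMUSG00000018648, chr11:84048041-84069261, minus strand) is a small atypical member without the MAP kinase docking domain of the others. It rose with Dex in run 2 and not in run 1. In run 2 it went from 4.83, 5.32 and 4.98 CPM to 12.4, 10.5 and 9.21 CPM in GRwt/wt (2.12-fold, log2 1.08, SE 0.11, adjusted p = 1.94e-10) and from 5.20, 5.54 and 4.98 CPM to 8.53, 7.75 and 7.42 CPM in GRL/L (1.51-fold, log2 0.59, SE 0.11, adjusted p = 7.43e-05). The difference between these genotypes, -0.49 (SE 0.15, adjusted p = 0.0993), did not pass, but did without GRwt/wt Dex replicate 6 (-0.59, adjusted p = 0.0291). In run 1 GRwt/wt was at 15.2, 13.9 and 13.0 CPM with vehicle and 12.5, 13.0 and 13.9 CPM with Dex, above the Dex level of run 2, and the response of the runs differed by 1.18 (SE 0.15, adjusted p = 4.76e-07). GRD/D fell from 11.8, 14.1 and 10.8 CPM to 8.85, 9.24 and 8.64 CPM (log2 -0.46, SE 0.11, adjusted p = 0.00455), which did not pass without vehicle replicate 2, the highest (-0.34, adjusted p = 0.0759), with the GRwt/wt runs pooled (-0.46, 0.116) or from the genotypes compared alone (-0.45, 0.0523). Its difference from GRwt/wt, -0.36 (SE 0.15, adjusted p = 0.295), did not pass, but did with the GRwt/wt runs pooled (-0.94, adjusted p = 0.00513), where run 2 entered with its rise. In GRD+L/D+L the libraries did not overlap either, at 15.7, 15.2 and 17.6 against 13.3, 14.3 and 14.0 CPM, and the log2 fold change of -0.22 (SE 0.10, adjusted p = 0.301) did not pass. GRko/ko was at 16.3 to 20.4 CPM in all 6 libraries.

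The Sprouty genes fell with Dex in GRwt/wt. Spry2 (ENSMUSG00000022114, chr14:105891947-105896819, minus strand) was the gene of the 10 lowered most in run 1, from 64.3, 59.3 and 64.2 CPM to 39.2, 35.7 and 37.5 CPM (0.598 times, log2 -0.74, SE 0.07, adjusted p = 6.26e-11). In run 2 it fell from 33.3, 30.7 and 31.0 CPM to 24.8, 26.1 and 25.1 CPM (0.8 times, log2 -0.32, SE 0.07, adjusted p = 0.00024). The groups were separate in both, and unlike Dusp1 the larger response was that of run 1, by 0.42 (SE 0.10, adjusted p = 0.00332). GRL/L fell from 35.7, 35.0 and 34.3 CPM to 27.7, 25.0 and 25.7 CPM (log2 -0.42, SE 0.07, adjusted p = 5.4e-06).

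In GRD/D, Spry2 was at 54.8, 56.5 and 55.4 CPM with vehicle and 49.8, 53.8 and 48.3 CPM with Dex, groups that did not overlap but did not pass (log2 -0.13, SE 0.07, adjusted p = 0.203). GRD+L/D+L fell from 74.7, 67.5 and 76.7 CPM to 61.9, 55.1 and 66.2 CPM (log2 -0.26, SE 0.06, adjusted p = 0.0101), which did not pass without its Dex replicate 2 (-0.19, adjusted p = 0.148), vehicle replicate 1 (-0.23, 0.0642) or vehicle replicate 3 (-0.22, 0.088), nor with the GRwt/wt runs pooled (-0.26, 0.0673). Compared with GRwt/wt the response was weaker by 0.61 in GRD/D (SE 0.09, adjusted p = 3.01e-05), by 0.49 in GRD+L/D+L (SE 0.09, adjusted p = 0.000717) and by 0.71 in GRko/ko (SE 0.09, adjusted p = 6.95e-07), where Spry2 was at 51.1 to 54.9 CPM with vehicle and 45.7 to 56.1 CPM with Dex. With the GRwt/wt runs pooled the difference in GRD+L/D+L was 0.28 and did not pass (adjusted p = 0.0866).

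Spry1 (ENSMUSG00000037211, chr3:37639947-37644598, plus strand) fell from 33.3, 34.5 and 34.3 CPM to 28.6, 23.3 and 23.0 CPM in GRwt/wt of run 2 (log2 -0.45, SE 0.08, adjusted p = 5.33e-05) and from 41.5, 39.0 and 36.1 CPM to 26.7, 24.1 and 25.2 CPM in GRL/L (log2 -0.62, SE 0.08, adjusted p = 2.9e-07). In run 1 the GRwt/wt libraries at 42.8, 34.9 and 43.1 CPM and 35.5, 32.9 and 30.8 CPM overlapped. Their log2 fold change of -0.29 (SE 0.09, adjusted p = 0.0251) did not pass without vehicle replicate 1 or 3 or Dex replicate 2 or 3 (-0.28 to -0.23, adjusted p from 0.0679 to 0.147). In GRD/D, GRD+L/D+L and GRko/ko vehicle and Dex libraries overlapped and the log2 fold changes were 0.082, 0.0070 and -0.042. None of the differences from GRwt/wt passed, although that of GRD/D, 0.37 (SE 0.13, adjusted p = 0.124), did without GRwt/wt vehicle replicate 2 (0.46, adjusted p = 0.0306) and with no filter on low counts (0.36, 0.043). With the GRwt/wt runs pooled it passed in GRD/D (0.45, adjusted p = 0.00636), GRD+L/D+L (0.38, 0.0327) and GRko/ko (0.33, 0.045). Spry1 shares 710 exon bases with Gm42922 on the other strand, to which 271 counts fell over all libraries.

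The vehicle libraries were compared in the same way to see whether the receptor genotype went with another level before Dex was added. GRD/D did not differ from GRwt/wt in any of the 10 genes by edgeR, 0 of 10 against 9.55% of all genes, with 2 genes, Spry1 and Spry2, at an unadjusted p under 0.05 and 0 of 10 by DESeq2. Spry1 was lower at 37.6, 31.5 and 35.5 CPM against 42.8, 34.9 and 43.1 CPM, and this passed without GRwt/wt vehicle replicate 2 (log2 -0.31, adjusted p = 0.0259). In GRD+L/D+L 3 of 10 genes differed, against 29.9% of all genes. Dusp5 was higher, at 103, 102 and 112 CPM against 61.4, 72.6 and 59.5 CPM (1.64-fold, log2 0.71, SE 0.07, adjusted p = 1.33e-10), and Spry1 was lower, at 32.8, 28.1 and 27.3 CPM (log2 -0.46, SE 0.09, adjusted p = 0.00015). Spry2 was higher at 74.7, 67.5 and 76.7 CPM against 64.3, 59.3 and 64.2 CPM (log2 0.22, SE 0.06, adjusted p = 0.00812), but not without GRD+L/D+L vehicle replicate 3 (0.18, adjusted p = 0.0617) or GRwt/wt vehicle replicate 2 (0.18, adjusted p = 0.0669).

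Near the threshold in GRD+L/D+L were Dusp1, lower by 0.15 on the log2 scale (log2 -0.15, adjusted p = 0.0574), Dusp6 (0.11, adjusted p = 0.0768) and Dusp10 (0.21, adjusted p = 0.0571). Dusp1 passed without GRD+L/D+L replicate 2 (-0.20, adjusted p = 0.0313) or GRwt/wt replicate 1 (-0.18, 0.0431), Dusp6 without GRD+L/D+L replicate 2 (0.15, 0.0365), and Dusp10 without GRD+L/D+L replicate 1 (0.27, 0.032) or GRwt/wt replicate 2 (0.26, 0.0439), all vehicle libraries.

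GRko/ko differed most, in 8 of 10 genes against 45.7% of all genes, 5 higher and 3 lower. Dusp4 was at 133, 136 and 110 CPM, below the 255 to 272 CPM of GRwt/wt (0.484 times, log2 -1.05, SE 0.07, adjusted p = 4.12e-15). Dusp5 was at 134, 130 and 126 CPM, above the 59.5 to 72.6 CPM of GRwt/wt (2.02-fold, log2 1.01, SE 0.07, adjusted p = 1.57e-15). These were the genes that also passed the limit of 1 on the size of the log2 difference, 2 of 10 against 14.2% of all genes. Dusp1 (log2 0.31), Dusp6 (0.18), Dusp10 (0.34) and Dusp14 (0.35) were higher and Spry1 (-0.51) and Spry2 (-0.23) lower, with adjusted p-values from 1.01e-05 to 0.00383, and Dusp8 and Dusp16 did not pass. With the GRwt/wt runs pooled, Spry2 did not pass (-0.14, adjusted p = 0.134).

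The GRko/ko cultures also differed in makeup from GRwt/wt of run 1. All 6 macrophage markers were detected in both, and summed to 2385 to 2655 CPM with vehicle in GRko/ko against 164 to 286 CPM. The 5 cartilage markers summed to 180 to 521 CPM against 18.8 to 21.0 CPM, with Matn1 at 0 in the vehicle libraries of GRwt/wt, and the 5 skeletal muscle markers to 71.1 to 73.6 CPM against 22.4 to 28.2 CPM, with Myod1 at 0 in the latter. In GRD+L/D+L the macrophage markers summed to 29.3 to 37.3 CPM, below GRwt/wt, and skeletal muscle markers to 116 to 140 CPM over both treatments against 22.4 to 30.8 CPM. Both genotypes also differed from GRwt/wt of run 1 in Xist and the Y-linked transcripts, and for GRko/ko the methods give another strain. The part of these differences in the vehicle levels was not tested, and in bulk RNA fewer cells of a type and less RNA per cell cannot be told apart.

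In run 2, 2 of 10 genes differed between GRL/L and GRwt/wt with vehicle, against 11.3% of all genes. Dusp4 was lower in GRL/L, at 30.1, 32.0 and 30.5 CPM against 39.2, 39.9 and 42.5 CPM (log2 -0.39, SE 0.08, adjusted p = 0.000536). Dusp1 was higher, at 13.3, 13.2 and 11.9 CPM against 10.8, 10.7 and 11.2 CPM (log2 0.24, SE 0.07, adjusted p = 0.0295). This call was lost without any 1 of GRL/L replicates 1 and 2 and GRwt/wt replicates 4, 5 and 6 (0.21 to 0.26, adjusted p from 0.0513 to 0.128), and with the GRwt/wt runs pooled the value was -0.13 (adjusted p = 0.645). The macrophage markers summed to 752 to 892 CPM in GRL/L and 435 to 455 CPM in GRwt/wt with vehicle, and to 605 to 758 and 376 to 418 CPM with Dex. With vehicle the cartilage markers summed to 104 to 107 CPM in GRL/L and 59.6 to 75.7 CPM in GRwt/wt, where Matn1 was at 0, and the 5 skeletal muscle markers to 13.4 to 14.8 and 21.3 to 22.0 CPM. The part of these markers in the results of run 2 was not tested. All 12 libraries of run 2 had the male pattern.

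**Figure D4:**
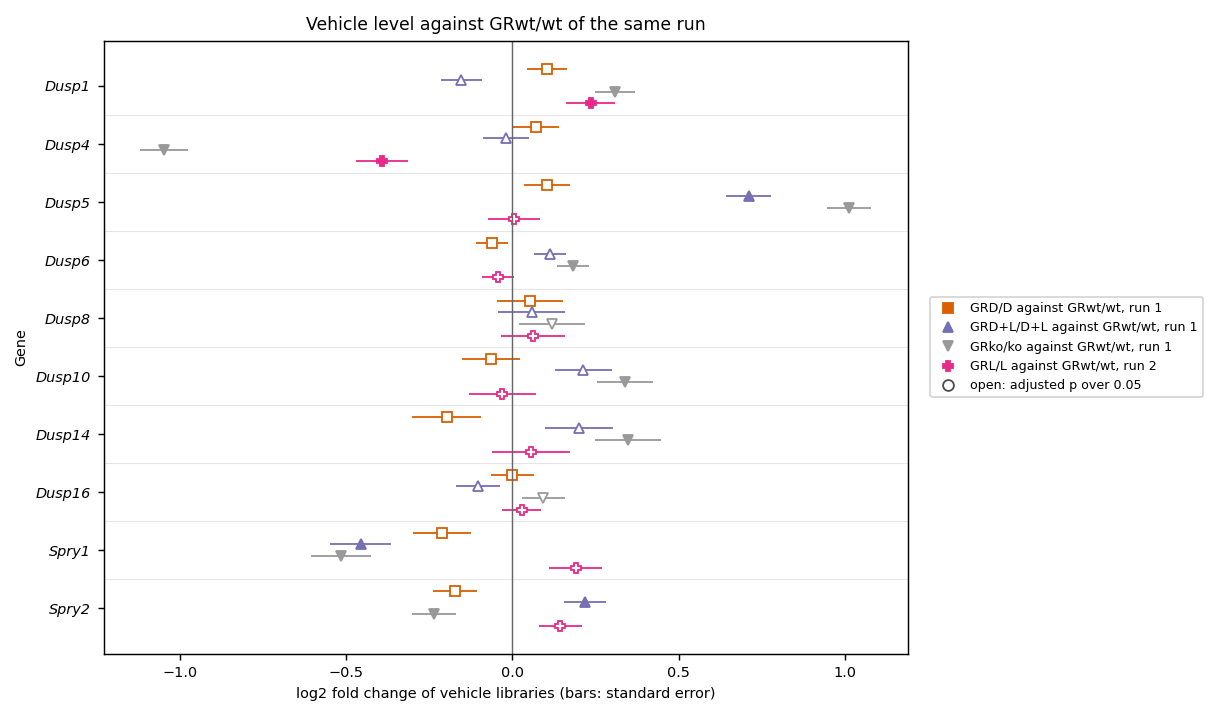
Vehicle level against GRwt/wt of the same run (horizontal axis, log2 fold change) for each gene and mutant, with bars for the standard error and filled symbols where the adjusted p-value did not exceed 0.05. The largest differences are those of Dusp4 at -1.05 and Dusp5 at 1.01 in GRko/ko, and no symbol of GRD/D is filled.

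GRD+L/D+L and GRD/D, which carry the same D mutation, differed with vehicle in 7 of 10 genes, against 37.5% of all genes. Dusp5 at 103, 102 and 112 CPM against 71.3, 68.7 and 68.0 CPM (log2 0.61, SE 0.07, adjusted p = 2.36e-09) and Spry2 at 74.7, 67.5 and 76.7 CPM against 54.8, 56.5 and 55.4 CPM (log2 0.39, SE 0.06, adjusted p = 6.07e-06) were higher in the double mutant and did not overlap. Dusp6, Dusp10 and Dusp14 were also higher (log2 0.17, 0.28 and 0.40), and Dusp1 and Spry1 lower (-0.26 and -0.24), with adjusted p-values from 0.00086 to 0.033. The calls of Dusp6 and Dusp10 were lost without GRD+L/D+L vehicle replicate 3 (0.13, adjusted p = 0.0515) and 2 (0.24, adjusted p = 0.0544), and that of Spry1 without GRD/D vehicle replicate 1 or 3 or GRD+L/D+L vehicle replicate 2 or 3 (-0.23 to -0.19, adjusted p from 0.0786 to 0.153) and with DESeq2 (adjusted p = 0.0508). With the GRwt/wt runs pooled, those of Dusp1 (-0.26, adjusted p = 0.146) and Dusp14 (0.40, adjusted p = 0.0655) did not pass. These genotypes differ in the Xist and Y-linked pattern and in the macrophage markers, at 29.3 to 37.3 CPM against 599 to 665 CPM, whose part was not tested.

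The relatives of the 10 genes and the cascades they act on were counted in the same way. The lists were chosen by gene function, but with earlier results of these data known, so their shares are description only. They stand beside the 13.9% of all genes that passed with Dex in GRwt/wt of run 1 and the 31.6% in run 2. Of 3 further MAP kinase phosphatases, 0 passed with Dex in GRwt/wt of run 1 and 2 in run 2, Dusp7 raised (log2 0.16, SE 0.06, adjusted p = 0.0417) and Dusp9 lowered (log2 -0.63, SE 0.11, adjusted p = 2.34e-05), and these were picked after their values had been seen. Of 9 other atypical dual-specificity phosphatases tested, 1 passed in run 1 and 2 in run 2, all lowered. Of the 5 other Sprouty and Spred genes, which restrain the same cascade, 4 were lowered in run 1 and 3 in run 2, against 6.20% and 16.7% of all genes lowered. Spred1 fell by 0.43 in run 1 and by 0.41 in run 2 on the log2 scale (log2 -0.43, adjusted p = 2.9e-08, and -0.41, adjusted p = 6.65e-09), Spred3 by 0.40 and 0.66 (log2 -0.40 and -0.66) and Spry4 by 0.40 and 0.29 (log2 -0.40 and -0.29). Spred1 and Spred3 also fell in GRD/D (-0.38, adjusted p = 6.56e-07, and -0.25, adjusted p = 0.0191) and in GRD+L/D+L (-0.23, adjusted p = 0.00286, and -0.32, adjusted p = 0.00243). Of these 5 genes, 4 responded differently in GRko/ko than in GRwt/wt, against 8.48% of all genes. The medians of the 3 lists in run 1 were 0.17, 0.028 and -0.40, beside -0.0018 over all genes, and in run 2 0.16, -0.021 and -0.29, beside -0.011.

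Of 17 genes from Ras to ERK, 1 passed in GRwt/wt of run 1, a share below the 13.9% of all genes, and 6 in run 2, a share near the 31.6% of all genes. Of 17 genes of the JNK and p38 cascade, 4 and 7 passed, against the same 13.9% and 31.6%, with the p38 gene Mapk14 raised (0.13 and 0.17) and the kinase genes Map3k4 (-0.23 and -0.41) and Map3k7 (-0.12 and -0.23) lowered. Of 9 receptors, 4 and 5 passed, again against 13.9% and 31.6%. Egfr was lowered in every set with a receptor, from -0.57 in GRD/D to -0.28 in GRL/L, while Fgfr2 was raised in both GRwt/wt runs (0.39 and 0.53) and in GRL/L (0.39) and had -0.084 and -0.14 in GRD/D and GRD+L/D+L, which did not pass. Pdgfrb was lowered in both runs (-0.20 and -0.63) and Pdgfra raised (0.45 and 0.32).

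Of 12 transcripts known to follow ERK activity, 8 passed in GRwt/wt of run 1, 2 raised and 6 lowered, and 11 in run 2, 2 raised and 9 lowered, against 13.9% and 31.6% of all genes. Their median log2 fold change was -0.27 and -0.57, beside -0.0018 and -0.011 over all genes. In GRD/D 8 passed, against 11.9% of all genes, in GRL/L 11, against 19.1%, in GRD+L/D+L 3, against 5.00%, and in GRko/ko 0. Phlda1 (-0.69 and -0.70), Etv5 (-0.54 and -0.64), Ier3 (-0.42 and -0.86) and Etv1 (-0.83 and -0.79) were lowered in both runs, and Ccnd1, the cyclin D1 gene, was raised in both (0.55 and 0.63). Etv5 and Ier3 were also lowered in GRD/D (-0.40 and -0.30), where 6 of the 12 were lowered and 2 raised. No gene of the lists passed in GRko/ko. The Dex response differed from GRwt/wt for 7 of the 12 in GRko/ko, against 8.48% of all genes, for 3 in GRD/D, against 3.29%, and for 1 in GRD+L/D+L, against 3.23%.

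The genes whose level followed the members most closely were sought by Pearson's correlation of log2 CPM, centred on the mean of each run, over the 36 libraries and 10682 genes with at least 5 CPM. Dusp1, raised most on average over the GRwt/wt runs (mean log2 0.88), was closest to Clic4 (r = 0.90), Klf5 (r = 0.90) and Irf2 (r = 0.89). Dusp10, lowered most (mean log2 -0.76), was closest to Relb (r = 0.93), Hbegf (r = 0.92) and Fmnl3 (r = 0.91). These values describe the libraries, which share genotype and treatment groups and their depth. With Dex, Klf5 rose by 0.37 and 1.54 on the log2 scale in runs 1 and 2, beside 0.34 and 1.42 for Dusp1. Clic4 rose by 0.32 and 0.68 and Irf2 by 0.31 and 0.78. Relb had -0.71 and -1.03, Hbegf -0.60 and -0.95 and Fmnl3 -0.34 and -0.77, beside -0.62 and -0.91 for Dusp10. These genes were picked by correlation over the same Dex and vehicle libraries, so their Dex changes are description only.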

How the data were processed

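The 36 MEF libraries formed 12 groups of 3, and their raw counts, 1 table with 1 column per library, were used as deposited by the authors. Per the labels and methods, TruSeq libraries had been run on a NextSeq, and reads were mapped to mm10 with HISAT2 2.1.0 and, where uniquely mapped, counted with featureCounts 2.0.0, with no normalization or filter of the counts. The submitters' processing notes also name FastQC and DESeq2. The annotation and the strand setting are not given in the sources used here, so reads of genes that overlap on opposite strands cannot be told apart. Library totals were 15280166 to 28662608 counts, and all columns of the table were mapped to samples by their labels. The gene identifiers were matched to 55141 symbols, and coordinates and exon lengths (for FPKM) come from GENCODE annotation of GRCm38.

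Counts were tested with edgeR 4.0.16 (limma 3.58.1, R 4.3.3), TMM scaling, filterByExpr, 1 model with a mean for each of the 12 groups and the quasi-likelihood F test, with Benjamini-Hochberg adjustment over 15489 genes and a threshold of 0.05. The biological coefficient of variation was 0.0513. The study pooled the runs with a run term in DESeq2. Pooling with a run term was kept as an alternative, because genotypes were compared here within each run. Such a term does not allow for a Dex response that differs between the runs, as it did in GRwt/wt for 7.09% of all genes. Standard errors were approximated from the log2 fold change and the square root of F, and approximate 95% intervals are 1.96 standard errors on either side. The 10 genes and all gene lists were chosen with earlier results of these data known. The genes named are the 10 members, up to 5 genes per list with the largest mean change among those that passed in both GRwt/wt runs, and the 3 genes closest to the members raised and lowered most. Dusp7 and Dusp9 fall outside this rule and were named after their values were seen. 1 gene that this rule would name is not reported here. Other alternatives were DESeq2 1.42.0, its size factors, no filter on low counts, a mean count of at least 50, the libraries of the same run or of the genotypes compared alone, the replicate number as a block, and each library left out in turn. Promoter windows are from RefSeq (GRCm38.p6). The fits were also run on simulated counts with known changes, as a check of the code only. The simulated spread was not matched to that of these data. Figures were drawn with matplotlib 3.10.9.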

Additional observations from a re-analysis of the deposited data

Results flagged for a closer look

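The results listed here are those in which the Dex response of a gene, as a log2 fold change, differed between 2 sets of libraries by the interaction test of edgeR with an adjusted p-value not above 0.05. Groups of 3 libraries were too small to be searched for outlying samples.

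Against GRwt/wt of run 1, GRD/D differed in Dusp1 by -0.737, in Dusp5 by 0.676, in Dusp10 by 0.662 and in Spry2 by 0.608. GRD+L/D+L differed in Dusp1 by -0.645, in Dusp5 by 0.488, in Dusp10 by 0.562, in Dusp16 by 0.383 and in Spry2 by 0.485. GRko/ko differed in Dusp1 by -0.292, in Dusp4 by 0.476, in Dusp10 by 0.635, in Dusp16 by 0.408 and in Spry2 by 0.707. These 3 comparisons share their GRwt/wt libraries.

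Against GRwt/wt of run 2, GRL/L differed in Dusp1 by -0.593. GRwt/wt of run 2 differed from GRwt/wt of run 1 in Dusp1 by 1.084, in Dusp4 by -0.366, in Dusp14 by 1.18 and in Spry2 by 0.418, and between these sets run, culture and sex cannot be told apart.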

How the results depend on the processing

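Of 2710 alternative values for the 10 genes, 2599 kept their side of the threshold, and also their direction where they passed. Changes of sign between values that did not pass were not counted. Of the rest, 59 no longer passed, 49 newly passed and 3 changed sign where the main or the alternative value passed. The 3 arose when the GRwt/wt runs were pooled with the run as a term: Dusp14 with Dex in GRwt/wt, set against its run 1 value, was 0.476, Dusp1 in GRL/L against GRwt/wt was 0.015 for the Dex response and -0.13 with vehicle. That alternative averages the runs by construction. Counts of the 10 genes that moved by over 1.5 times were, with it, 1 in GRD/D and 1 in GRD+L/D+L with Dex, 8 and 0 for the response differences of GRD/D and GRL/L, and 1 and 5 with vehicle in GRD/D and GRD+L/D+L. The vehicle count of GRD+L/D+L was also 5 when the filter was a mean count of 50 and 6 from the genotypes compared alone, and that of GRL/L was 1 with no filter on low counts. For these the cause was not tested. The study's fold limit left 2 genes in GRwt/wt of run 2 with Dex, 2 in GRko/ko with vehicle and 2 for the difference between the runs, and 0 in every other comparison that had any. With a library left out, the count was 1 to 2 with Dex in GRD+L/D+L, 5 to 7 in GRwt/wt of run 1, 1 to 2 for the response difference of GRL/L, and 0 to 1, 2 to 5 and 1 to 2 with vehicle in GRD/D, GRD+L/D+L and GRL/L.

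Over all genes, pooling the runs moved the count from 2159 to 5207 in GRwt/wt of run 1 and the response differences from 509 to 1105 in GRD/D, from 501 to 1227 in GRD+L/D+L, from 1314 to 2310 in GRko/ko and from 286 to 115 in GRL/L. From the genotypes compared alone the count was 693 in place of 1838 in GRD/D, 1507 in place of 774 in GRD+L/D+L and 885 in place of 501 for its response difference. The 12 genes that differed between GRD+L/D+L and GRD/D became 0 to 87, and in GRko/ko 110 passed with no filter and 1 with DESeq2. With each library left out, the counts of GRD/D were 1129 to 2011 with Dex and 934 to 2208 with vehicle, beside 1838 and 1479, and those of GRL/L with vehicle 1170 to 1474, beside 1757.

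The replicate numbers showed no clear pairing of the samples: vehicle and Dex libraries of the same number correlated at -0.1609 to 0.2362 in 18 pairs, 3 of them over 0.1, beside -0.1907 to 0.1922 for other numbers. With 3 libraries per group these correlations cannot settle whether the same culture gave both treatments. With the number as a block the count was 9 in GRwt/wt of run 2, 4 in GRD/D, 4 in GRD+L/D+L and 4, without Dusp16, for the response difference of GRD+L/D+L, and it was not run for GRL/L with vehicle, whose replicate numbers differ from those of GRwt/wt. The depth allowed at least 90 counts per gene and library, and with 3 libraries per group differences of the size of the standard errors given cannot be seen.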
